A study of Mus musculus with 2 samples.

Results

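The semaphorin, netrin, slit and ephrin guidance genes were taken by their gene symbols: class 3 to 7 semaphorins with the plexins, netrins with the Unc5 receptors, slits with the Robo receptors, and ephrins with the Eph receptors. The symbol rule found 65 genes among the 31053 gene rows of the count matrices, 34 of them ligands and 31 receptors. RNA was counted in single cells of the non-cardiomyocyte fraction of hearts of adult male C57BL6/J wildtype mice, with a droplet kit that reads the 3' end of each transcript. The sham group had been operated on without narrowing of the aorta, and the TAC group had undergone transverse aortic constriction, which loads the left ventricle with pressure; both were taken on day 20. Each group was 1 library. The labels give neither an exact age nor how many hearts went into a library. With no replicates, no test was made, and every interval covers counting error only.

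Guidance molecules were named for steering growing axons, and the same proteins pattern blood and lymphatic vessels and move immune cells. Class 3 semaphorins are secreted and mostly bind a plexin together with a neuropilin, whereas the other semaphorins measured here are largely held at the cell surface and bind plexins directly. Netrins bind Dcc, neogenin and the Unc5 receptors, and slits bind Robo receptors. Ephrins stay on the cell surface and signal through Eph receptors of the neighbouring cell. In vessels, ephrin-B2 is a classical marker of arterial endothelium and its receptor EphB4 of venous endothelium.

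RNA molecules were counted as UMIs (unique molecular identifiers): 42490230 over 8426 sham barcodes and 96003109 over 8901 TAC barcodes. Filters kept 7894 sham and 7854 TAC cells, with median depths of 4881.5 and 11158 UMIs. Each cell was given a class by a gate on marker genes, none of which is a guidance gene, and 345 sham and 359 TAC cells got no class. Comparisons between sham and TAC were made in the 4 classes with at least 50 cells in each library: 6079 and 5364 fibroblasts, 1025 and 859 macrophages, 133 and 596 endothelial cells, and 68 and 310 lymphatic endothelial cells. In these classes every marker of the class was seen in at least 20% of the cells (8 of 8 markers for the first 3 classes, 5 of 5 for the lymphatic class). The sham endothelial cells were shallow, with a median of 1946 UMIs against 4360 in TAC. Levels are UMIs summed over the cells of a class and scaled to the class total (CPM). They are not divided by gene length, so levels are compared between classes and libraries and not between genes.

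Of the 65 genes, 30 reached 50 CPM in at least 1 class of at least 50 cells, 20 of them ligands and 10 receptors. A further 13 reached between 10 and 50 CPM, and 22 stayed under 10 CPM in every such class. Epha6 and Sema5b had no UMI in any kept cell, and Ntn5 and Unc5d had 1 or 2. Among the 30, the class with the highest level out of the 4 compared classes was the same in both libraries for 26: fibroblasts for 5, macrophages for 3, endothelial cells for 10 and lymphatic endothelial cells for 8. All 5 fibroblast genes were ligands. The macrophage genes were 2 ligands and 1 receptor, the endothelial genes 5 ligands and 5 receptors, and the lymphatic genes 6 ligands and 2 receptors. Over all classes of at least 50 cells, the Poisson interval of the highest class lay above that of the next class for 13 of 30 genes in the sham library and 22 of 30 in the TAC library, so much of the order in the sham vessels was not resolved at this depth.

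**Figure D1:**
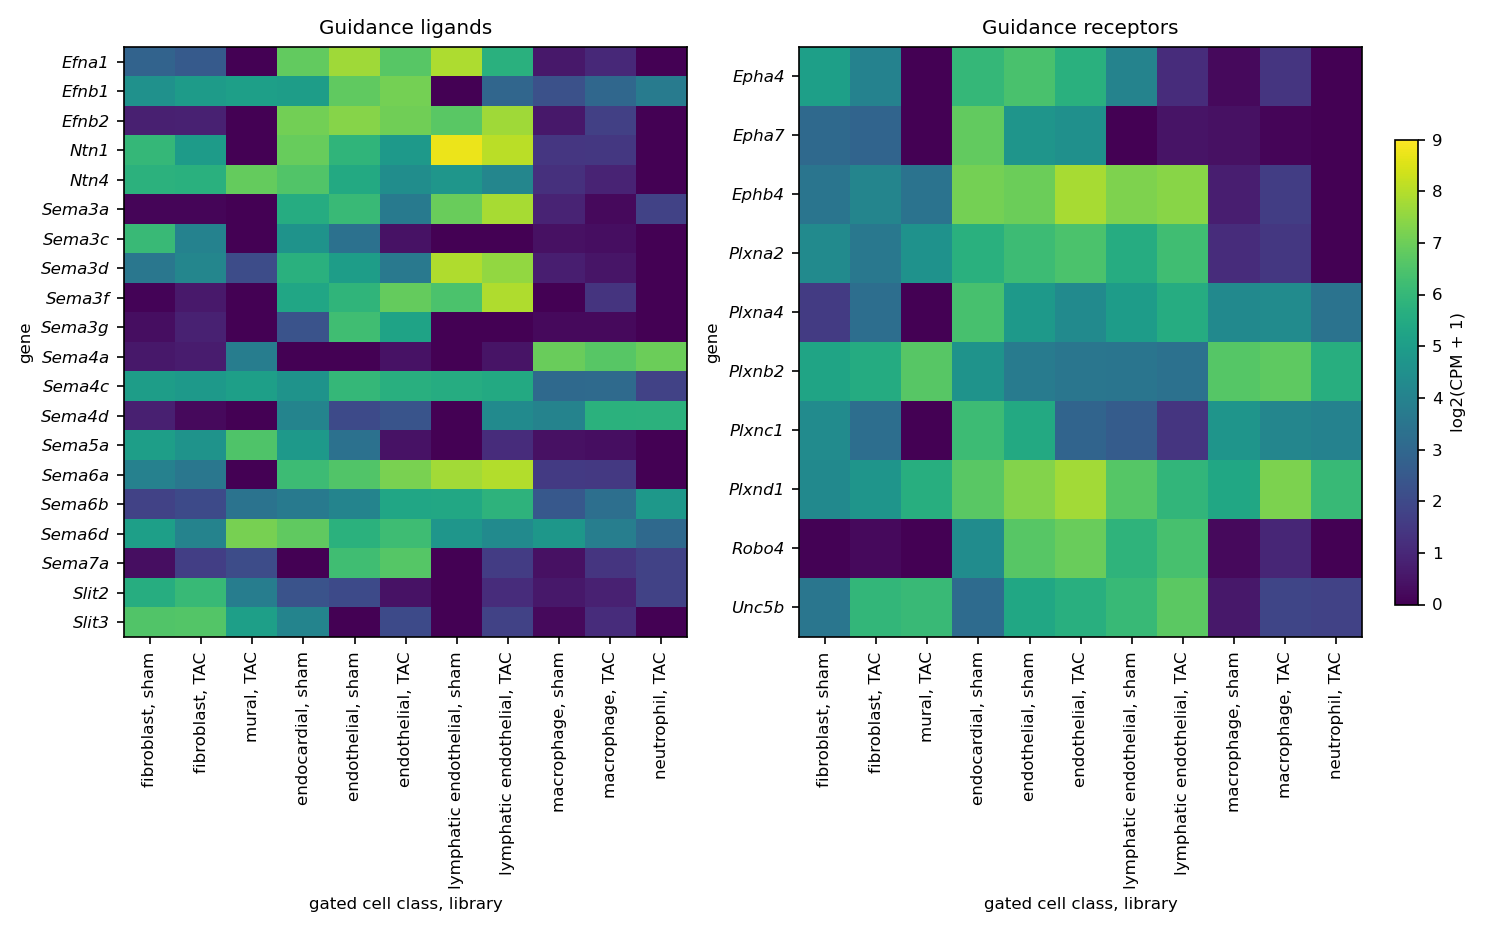
Level of the 30 guidance genes at 50 CPM or more (rows: ligands on the left, receptors on the right) in each class of at least 50 cells and each library (columns), as log2(CPM + 1) by colour. Slit2 and Slit3 are brightest in the fibroblast columns, Sema3c in the sham fibroblast column, Sema4a in the macrophage and neutrophil columns, and most other genes in the endothelial, endocardial and lymphatic columns.

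Slit ligands were highest in fibroblasts. Slit3 was at 93.5 CPM in sham and 95.7 CPM in TAC fibroblasts, against at most 2.41 CPM in macrophages and lymphatic endothelial cells and 3.06 CPM in endothelial cells. Slit2 was at 47.5 and 65.3 CPM in fibroblasts and had 1 UMI in endothelial cells of each library. The Robo receptors had another distribution. Robo4, the Robo receptor of endothelium, was at 99.2 and 122 CPM in endothelial cells and at 56.4 and 82.3 CPM in lymphatic endothelial cells, with 1 and 11 UMIs in all fibroblasts. Robo1 was instead a fibroblast transcript, at 18.4 and 12.7 CPM, with no UMI in endothelial cells of either library.

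The netrin ligands were divided between classes. Ntn1, the founding netrin, was highest in lymphatic endothelial cells, at 421 CPM in sham and 266 CPM in TAC, and was at 62.1 and 29.4 CPM in fibroblasts. Ntn4, a netrin of basement membranes, was at 54.2 and 51.4 CPM in fibroblasts, and among the smaller classes it reached 94.2 CPM in the 67 sham endocardial cells and 117 CPM in the 72 TAC mural cells (pericytes and smooth muscle cells gated together). Of the netrin receptors, Unc5b was at 66.7 and 106 CPM in lymphatic endothelial cells and at 40.3 and 49.99 CPM in endothelial cells, with macrophages at 0.509 and 2.69 CPM. Both other receptor genes of that subfamily with more than a few UMIs, Unc5a and Unc5c, reached at most 11.8 CPM in classes of at least 50 cells.

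Semaphorins were found in each of the 4 compared classes. Sema3c was a fibroblast ligand, at 68.2 CPM in sham and 14.8 CPM in TAC fibroblasts, and had no UMI in lymphatic endothelial cells of either library. Sema5a was at 32.1 and 23.7 CPM in fibroblasts, and at 91.1 CPM in TAC mural cells. Sema3a, Sema3d, Sema3f, Sema6a and Sema6b were highest in lymphatic endothelial cells: Sema3d, for example, was at 241 and 185 CPM there and at 31.0 and 11.6 CPM in endothelial cells. Sema6a, a transmembrane semaphorin, was at 216 and 247 CPM there and at 93.03 and 144 CPM in endothelial cells. Sema6b was at 41.1 and 55.0 CPM in lymphatic cells and at 15.5 and 38.8 CPM in endothelial cells, with overlapping counting intervals in each library. The values of Sema3a and Sema3f are given with the comparison. Sema3g and Sema7a were endothelial, with Sema3g at 74.4 and 36.05 CPM and no UMI in lymphatic cells, and Sema7a at 74.4 and 98.6 CPM against 0 and 2.01 CPM in lymphatic cells. Sema4c was broader, at 62.0 and 49.99 CPM in endothelial, 46.2 and 43.4 CPM in lymphatic and 31.2 and 28.6 CPM in fibroblasts. Sema6d was at 52.7 and 72.8 CPM in endothelial cells, at 110 CPM in sham endocardial cells and at 143 CPM in TAC mural cells. Sema4a and Sema4d, semaphorins known from immune cells, were macrophage ligands within the 4 classes. Sema4a was at 122 and 100 CPM in macrophages, at 125 CPM in the 87 TAC neutrophils, and had 0 and 1 UMIs in endothelial cells.

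Plexin receptors were spread in the same uneven way. Plxnb2, a receptor of class 4 semaphorins, was at 98.0 and 107 CPM in macrophages and at 37.2 and 45.6 CPM in fibroblasts, against 12.4 and 10.5 CPM in endothelial cells. Plxnd1, best known as a plexin of developing vessels, was at 161 and 213 CPM in endothelial cells. Plxna2 was at 71.3 and 86.0 CPM in endothelial cells and at 46.2 and 75.5 CPM in lymphatic cells, and within each library the counting intervals of these classes overlapped. Plxna4 was at 30.8 and 47.0 CPM in lymphatic cells and at 82.4 CPM in sham endocardial cells, from 21 UMIs. Neuropilins, the co-receptors of the class 3 ligands, were followed as background: Nrp1 was at 583 and 913 CPM in endothelial cells and Nrp2 at 529 and 543 CPM in lymphatic endothelial cells.

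The ephrins and Eph receptors at 50 CPM or more were highest, among the 4 compared classes, in endothelial or lymphatic endothelial cells. At lower levels Efna2, Efna5 and Ephb6, and under 10 CPM Epha1, Epha3, Ephb2 and Ephb3, were highest of these 4 classes in fibroblasts in both libraries. Beyond the 4 classes, Ephb6 was highest in TAC mural cells, at 26.0 CPM against 5.06 CPM in TAC fibroblasts. Efnb2 was at 164 and 132 CPM in endothelial cells and at 103 and 210 CPM in lymphatic endothelial cells. Its receptor gene Ephb4 was at 124 and 224 CPM in endothelial and at 154 and 170 CPM in lymphatic cells, and at 10.2 and 16.3 CPM in fibroblasts. Efnb1 was at 112 and 137 CPM in endothelial cells with 0 and 6.83 CPM in lymphatic cells, so the lymphatic class held Efnb2 and little Efnb1. Epha4 was at 83.7 and 52.0 CPM in endothelial and 62.8 CPM in sham endocardial cells. Epha7 was highest in endocardial cells, at 114 CPM in sham, against 24.8 and 21.8 CPM in endothelial cells of the sham and TAC libraries. Efna5 was an ephrin of fibroblasts (38.2 and 39.0 CPM) and lymphatic cells (35.9 and 35.7 CPM), with 2 and 12 UMIs in endothelial cells.

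The profiles of Sema3c, Unc5b and Plxnd1 over the 11 combinations of class and library with at least 50 cells was compared with those of the other members, as a description: the values share libraries and depth. By Pearson correlation of log2(CPM + 1), the members most like Sema3c were Unc5c (r = 0.93), Sema3b (0.86) and Epha7 (0.71). Those most like Unc5b were Sema4c (r = 0.84), Plxna2 (0.80) and Ephb4 (0.74). Those most like Plxnd1 were Robo4 (r = 0.68), Sema6b (0.64) and Efnb2 (0.63).

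Unc5b and Sema3c had the highest and the lowest ratio of TAC to sham among the measured members of fibroblasts, and Plxnd1 the highest in macrophages. Their promoters are shown because these genes carry the comparisons that follow. The windows are the 250 bases before the annotated start from RefSeq, build GRCm38.p6, 5' to 3' on the strand of the gene: Sema3c on chr5:17574566-17574815 (plus strand), Unc5b on chr10:60831582-60831831 (minus strand) and Plxnd1 on chr6:115995006-115995255 (minus strand). The Sema3c window precedes the RefSeq start but lies inside the longer GENCODE span of the gene given with its values below, whereas the other windows abut the GENCODE start. Capitals mark motif matches on either strand.
Sema3c: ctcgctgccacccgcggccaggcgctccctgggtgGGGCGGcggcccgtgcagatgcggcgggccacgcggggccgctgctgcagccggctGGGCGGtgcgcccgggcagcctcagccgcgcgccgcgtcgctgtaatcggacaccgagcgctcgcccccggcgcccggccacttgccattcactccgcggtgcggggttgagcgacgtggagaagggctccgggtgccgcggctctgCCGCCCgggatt
Unc5b: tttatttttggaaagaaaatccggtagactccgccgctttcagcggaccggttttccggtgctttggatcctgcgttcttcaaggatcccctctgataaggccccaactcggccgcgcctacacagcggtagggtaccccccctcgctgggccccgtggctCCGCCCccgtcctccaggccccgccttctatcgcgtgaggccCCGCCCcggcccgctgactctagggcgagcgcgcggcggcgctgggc
Plxnd1: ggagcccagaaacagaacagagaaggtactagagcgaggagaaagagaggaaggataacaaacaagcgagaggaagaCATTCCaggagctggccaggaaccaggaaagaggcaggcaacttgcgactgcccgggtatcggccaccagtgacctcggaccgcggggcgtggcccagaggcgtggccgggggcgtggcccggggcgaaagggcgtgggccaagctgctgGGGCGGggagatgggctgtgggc
The GC box GGGCGG was matched 3 times before Sema3c, 2 times before Unc5b and 1 time before Plxnd1, and 32.7% of 32851 promoter windows of the same length hold it. The TEAD motif GGAATG was matched 1 time, before Plxnd1, and is held by 12.6% of windows. The AP-1 motif TGANTCA, the E-box CACGTG and the TATA box TATAAA had no match in these windows and are held by 6.75%, 6.02% and 12.4% of all windows. No matches overlap in these windows, and a match is a description of letters only.

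In fibroblasts 21 of the 65 genes were measured, meaning at least 10 CPM in a library and at least 10% of the highest class. The second condition is a limit set against free RNA, and it was not checked against empty droplets. Of the 21 genes, 1 was called higher and 5 lower in the TAC library. A call is a difference of at least 2-fold with a counting interval that excludes 1. Over all 8553 genes measured in fibroblasts, 2.99% were called higher, 2.56% lower and 5.55% either way. The median log2 ratio of the 21 genes was -0.07, and that of all measured genes was also -0.07.

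The gene called higher was Unc5b, a netrin receptor that mediates repulsion (mm10 chromosome 10, 60762593 to 60831581, minus strand, protein coding). It had 333 UMIs, 10.7 CPM, in sham fibroblasts and 4072 UMIs, 61.9 CPM, in TAC fibroblasts, a ratio of 5.81 (95% interval 5.19 to 6.51). After every cell had been thinned to 3800 UMIs, 3.97% of 4934 sham fibroblasts and 19.3% of 5147 TAC fibroblasts held an Unc5b UMI, against 0.292% of sham and 0.491% of TAC macrophages. Without thinning the fibroblast shares were 5.001% and 44.2%, at median depths of 4986 and 12114.5 UMIs, with macrophages at 4444 and 9134 UMIs. In the TAC library the fibroblast level lay above that of endothelial cells, which were at 49.99 CPM, and in the sham library below it.

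Markers of other cells within the fibroblast class also differed. The 8 endothelial markers summed to 7.91 CPM in sham and 18.6 CPM in TAC, and the 5 lymphatic markers to 2.95 and 8.65 CPM, all above 0 in both libraries. Smooth muscle markers summed to 14.7 and 83.3 CPM (5 and 6 of 6 above 0, Cnn1 at 0 in sham). Endocardial markers summed to 7.75 and 36.6 CPM (2 and 3 of 3, Hapln1 at 0 in sham). Single genes made up most of these TAC sums, Tagln at 54.8 CPM and Cytl1 at 34.7 CPM. In sham the highest endocardial marker was Npr3, at 4.77 CPM. Haemoglobin genes summed to 435 and 1148 CPM and neutrophil markers to 0.896 and 8.08 CPM. The monocyte, dendritic, T or NK cell and cardiomyocyte sums were also higher in TAC. Other sums were lower in TAC: macrophage (35.7 and 33.0 CPM), pericyte (29.0 and 24.8 CPM), Schwann (43.4 and 27.1 CPM), B cell and mesothelial. Here too single genes made up most of some sums in both libraries. Cdh19 was at 41.7 and 24.5 CPM of the Schwann sums, with Sox10 and Kcna1 at 0 in sham and Gfra3 at 0 in TAC. Hp was at 20.7 and 37.0 CPM of the monocyte sums, and Zbtb46 at 9.60 and 12.0 CPM of the dendritic sums. The part of these cells in the fibroblast values was not tested.

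Sema3c, a secreted semaphorin best known for guiding neural crest cells into the cardiac outflow tract, was the lowest in TAC relative to sham (chromosome 5, 17574281 to 17730268, plus strand). It had 2131 UMIs, 68.2 CPM, in sham and 972 UMIs, 14.8 CPM, in TAC fibroblasts, which is 4.62-fold lower (4.28 to 4.98). At equal depth 15.4% of sham and 3.71% of TAC fibroblasts held a UMI of it, against 18.2% and 9.97% unthinned. It was seen in 0 of 684 sham macrophages, which allows a share of cells with a UMI of up to 0.439% by the 3-count floor, and in 0.123% of TAC macrophages. The other 4 genes called lower stood near the 2-fold limit. Ntn1 was at 62.1 CPM in sham and 29.4 CPM in TAC, 2.11-fold lower (1.98 to 2.25). Sema6d, a transmembrane semaphorin, was at 32.4 and 15.4 CPM, 2.11-fold lower (1.93 to 2.31). Epha4, an Eph receptor that binds ephrins of both classes, was at 32.7 and 15.0 CPM, a ratio of 0.458 (0.419 to 0.501). Plxnc1, the receptor of semaphorin 7A, was at 19.2 and 8.49 CPM, 2.26-fold lower (2.01 to 2.54). Epha4 lost its call when all cells were thinned to 1 depth (log2 ratio -0.86). At equal depth 6.57% of sham and 2.95% of TAC fibroblasts held a Plxnc1 UMI, below the 9.50% of sham macrophages, and the share for Sema6d went from 11.1% to 5.67%.

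Slit ligands and Robo1 were nearer to even between the libraries. Slit3 differed by a ratio of 1.02 (0.980 to 1.07), Ntn4 by 0.949 (0.895 to 1.01) and Efna5 by 1.02 (0.953 to 1.09). Slit2 was 1.38-fold higher in TAC (1.30 to 1.46), under the 2-fold limit. Robo1 stood at a ratio of 0.689 (0.619 to 0.767).

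**Figure D2:**
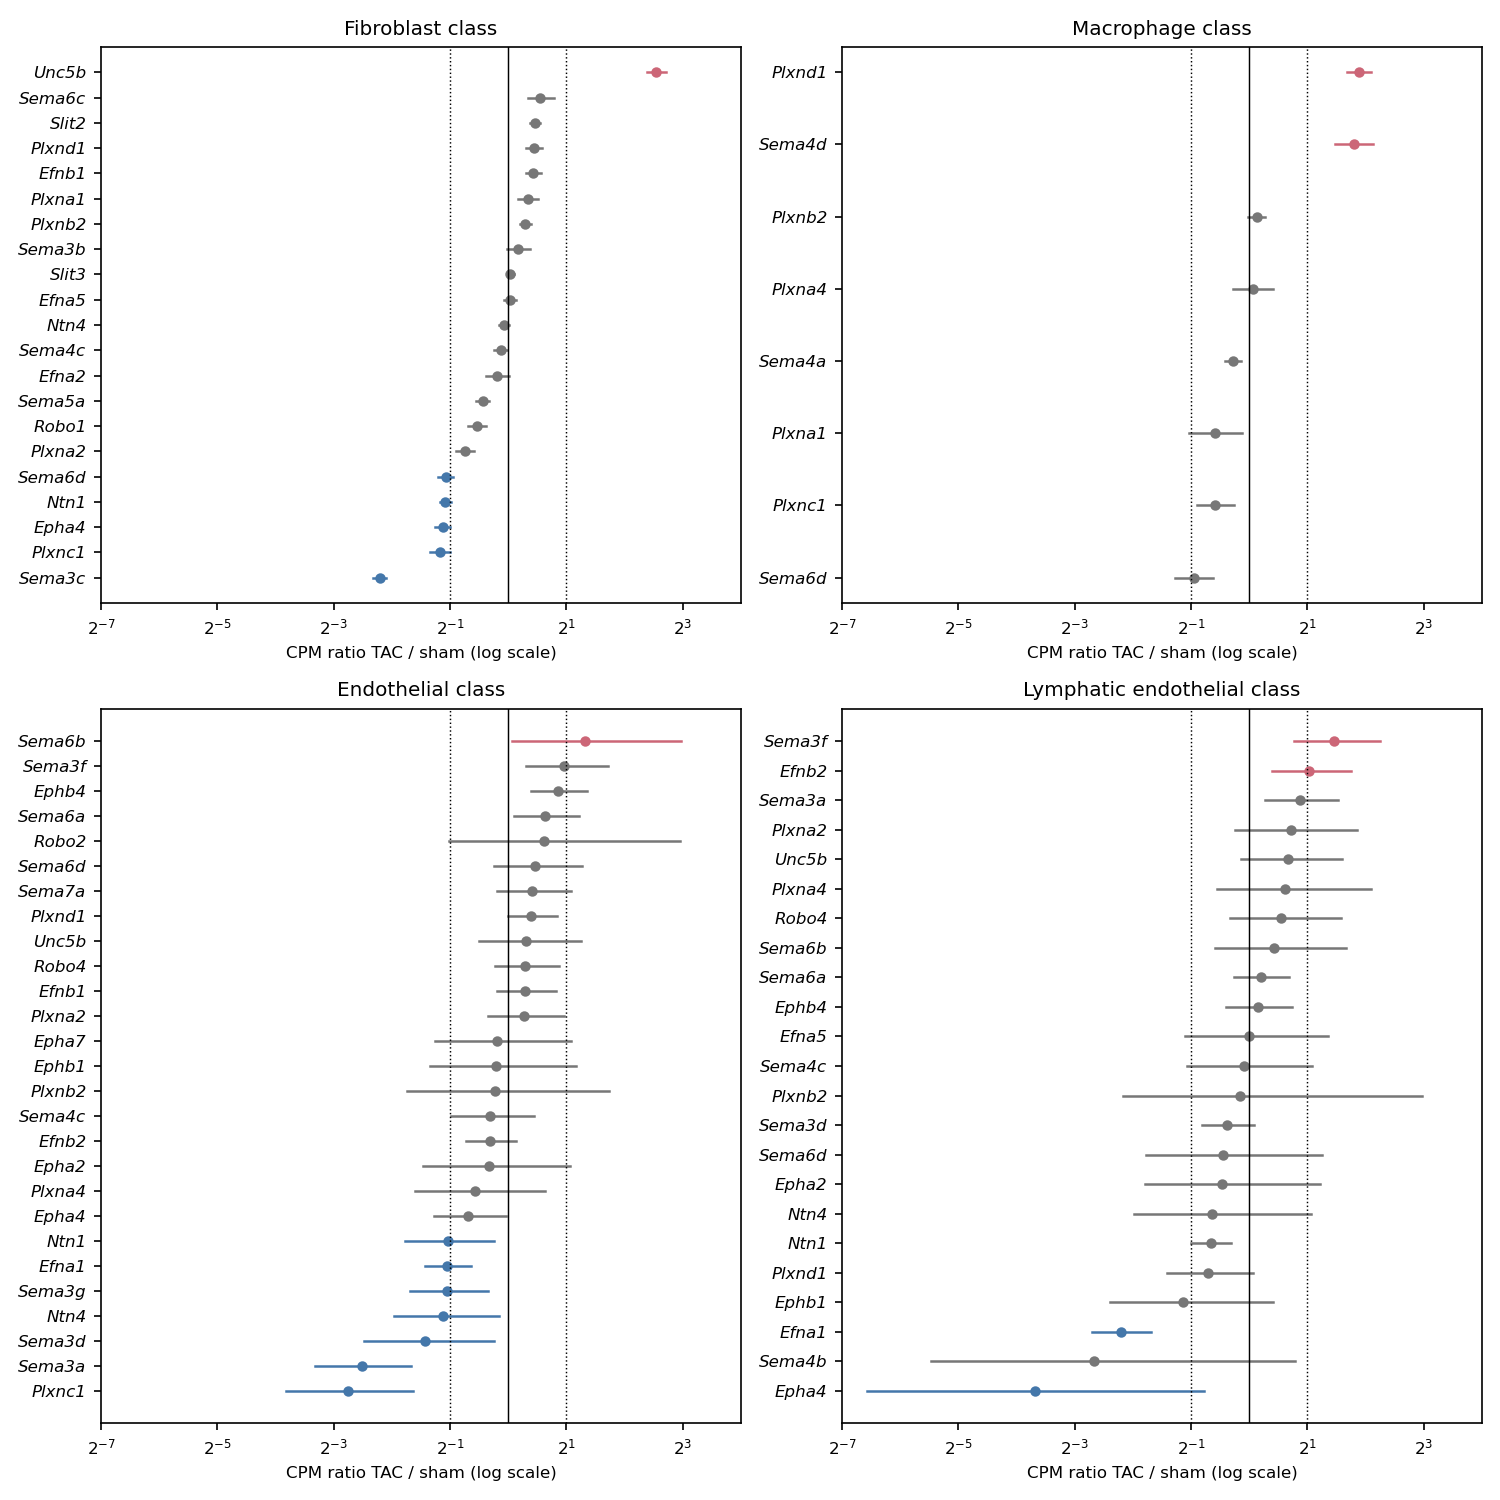
Ratio of the TAC to the sham level (CPM ratio, log scale) of each measured guidance gene in the 4 compared classes, with exact 95% counting intervals as lines; red marks genes called higher and blue genes called lower in TAC, dotted lines mark 2-fold. Sema4d of lymphatic endothelial cells, with 0 UMIs in sham, has no point, and Unc5b and Sema3c stand apart among the fibroblast genes.

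Of the partners of these families in fibroblasts, 6 of 13 co-receptors and alternative partners were measured and none was called in either direction. Nrp1 was at 156 and 158 CPM, and the netrin receptor Neo1 was at 13.9 and 24.1 CPM, 1.73-fold higher (1.56 to 1.93). Of 33 intracellular effectors, 26 were measured, 3 called higher and 1 lower. Mical2, an enzyme that oxidises actin, was at 15.7 CPM in sham and 111 CPM in TAC, a ratio of 7.05 (6.44 to 7.75). Ngef, an exchange factor downstream of Eph receptors, was at 2.14 and 12.7 CPM, a ratio of 5.93 (4.62 to 7.73). The kinase gene Pak1 was at 6.40 and 15.6 CPM (ratio 2.44), and the actin-binding Ablim1 at 97.4 and 46.5 CPM, 2.09-fold lower (1.99 to 2.20). The median log2 ratio of the effectors was 0.14 in a range from -1.05 to 2.74.

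Fibroblasts were also divided by single genes, a choice made after the values had been seen. At 3800 UMIs a cell, Sema3c was at 84.1 CPM in sham fibroblasts with a UMI of Pi16, a marker of adventitial fibroblasts, and at 16.8 CPM in those without one. In TAC fibroblasts Sema3c was at 14.3 CPM with Pi16 and at 3.32 CPM without. Within each library Sema3c was therefore higher in the Pi16 cells, and within each of these divisions it was lower in TAC. Ntn1 too was higher with Pi16, at 68.6 and 38.4 CPM in sham and at 28.7 and 18.1 CPM in TAC. Epha4 and Slit3 were lower with Pi16 in both libraries. Unc5b had no such division by Pi16, at 10.9 and 11.9 CPM in sham and 62.1 and 63.1 CPM in TAC. By Postn, a gene of activated fibroblasts, Unc5b was at 24.3 CPM with and 10.6 CPM without a UMI in sham, and at 67.7 and 50.8 CPM in TAC, so TAC fibroblasts without a Postn UMI still exceeded both sham divisions. Sema3c was also higher with Postn, at 110 and 64.5 CPM in sham and at 15.2 and 6.55 CPM in TAC. Slit3 had the opposite order in both libraries, at 40.9 CPM with Postn and 92.7 CPM without in sham. In TAC it was at 84.3 and 136 CPM. Cells with a Postn UMI numbered 206 of 4934 in sham and 3499 of 5147 in TAC. Those with a Pi16 UMI numbered 3631 in sham and 4275 in TAC, most of the fibroblasts of each library.

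**Figure D3:**
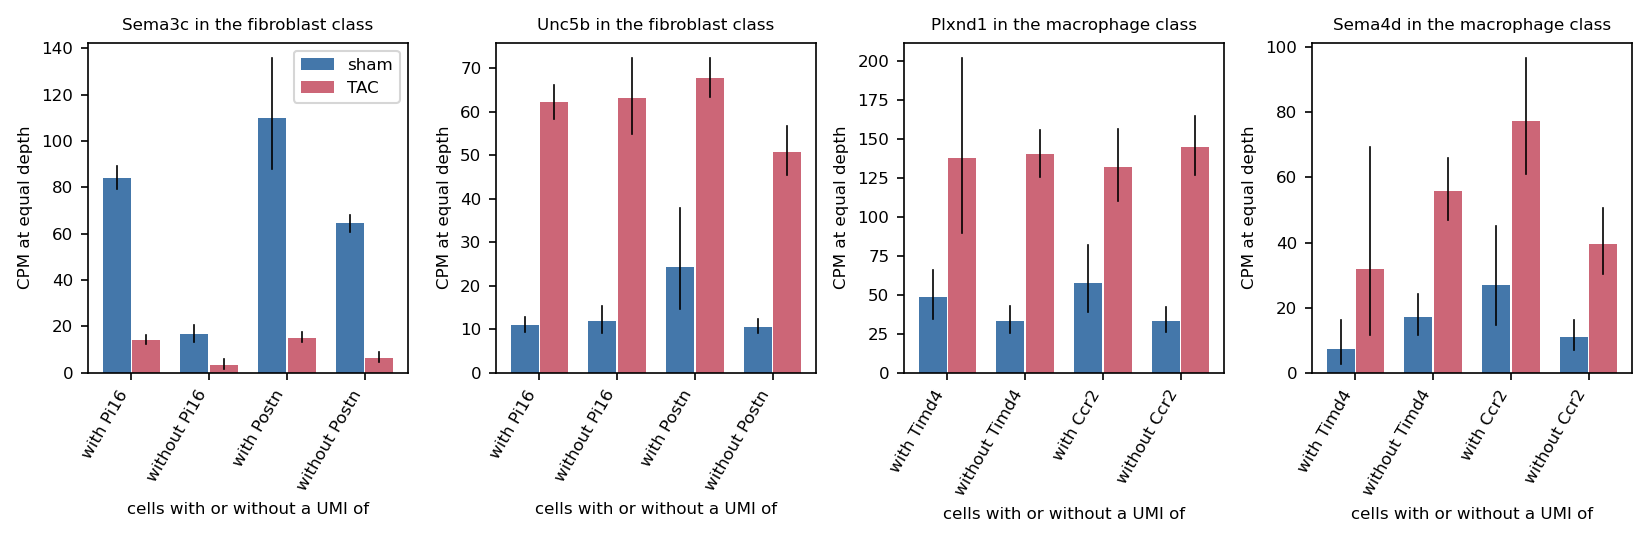
Level at equal depth (CPM, linear axis) of Sema3c and Unc5b in fibroblasts with or without a UMI of Pi16 or Postn, and of Plxnd1 and Sema4d in macrophages with or without a UMI of Timd4 or Ccr2, in sham (blue) and TAC (red); lines are exact 95% Poisson intervals. Sema3c is higher with Pi16 in both libraries, and Unc5b is higher in TAC in all 4 divisions.

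In macrophages 8 guidance genes were measured, 2 were called higher in TAC and 0 lower, where 2.75% of 7921 measured genes were called higher, 1.87% lower and 4.62% either way. The median log2 ratio of the 8 was -0.11 against -0.05 for all measured genes. With no minimum level, 3 of 29 members would be called lower. The share of all genes called under that rule was not counted, and the shares above do not apply to it.

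Plxnd1 (chromosome 6, 115954811 to 115995005, minus strand), a plexin, was at 40.4 CPM, 238 UMIs, in sham macrophages and at 149 CPM, 1717 UMIs, in TAC macrophages, a ratio of 3.69 (3.22 to 4.24). At 3200 UMIs a cell, 11.3% of sham and 35.9% of TAC macrophages held a Plxnd1 UMI, against 5.47% and 7.89% of fibroblasts, and without thinning the macrophage shares were 17.8% and 73.1%. The sham level lay below all 4 values of endothelial and lymphatic cells, and the TAC level exceeded both lymphatic values. Sema4d (chromosome 13, 51685529 to 51793747, minus strand), a ligand of B plexins, was at 15.1 CPM, 89 UMIs, in sham and at 52.5 CPM, 605 UMIs, in TAC macrophages, a ratio of 3.47 (2.78 to 4.39). At 3200 UMIs 4.38% of sham and 15.6% of TAC macrophages held a UMI of it, against 0.257% and 0.0386% of fibroblasts.

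**Figure D4:**
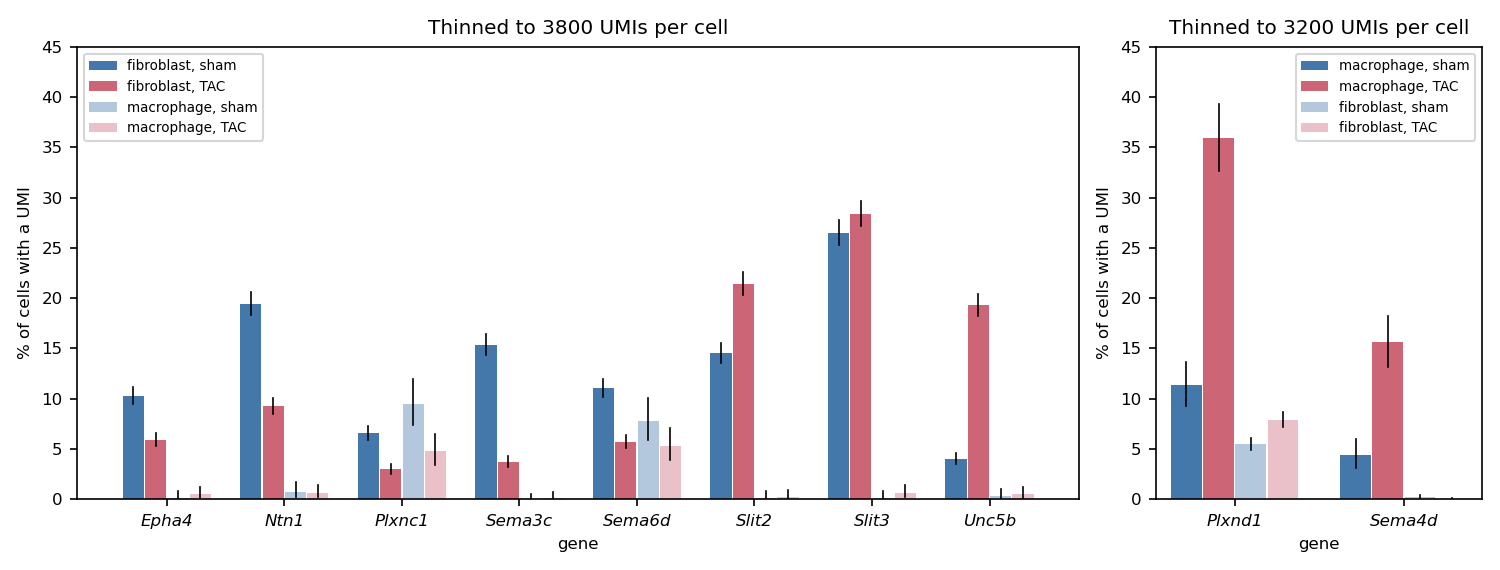
Share of cells with at least 1 UMI of a gene (%) after thinning each cell to 1 depth, for fibroblast genes (left, 3800 UMIs) and macrophage genes (right, 3200 UMIs), with exact Clopper-Pearson 95% intervals; pale bars give the other class as a background. Unc5b goes from 3.97% to 19.3% of fibroblasts and Plxnd1 from 11.3% to 35.9% of macrophages, each above the pale bars.

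The other macrophage members differed less. Sema4a was at 122 and 100 CPM (ratio 0.823, 0.749 to 0.904), Plxnb2 at 98.0 and 107 CPM (1.09, 0.989 to 1.21) and Plxna4 at 18.5 and 19.4 CPM. Sema6d was at 26.1 and 13.5 CPM, a ratio of 0.518 (0.412 to 0.651), just short of the 2-fold limit, and it passed that limit when macrophages were taken from clusters or when macrophages with a monocyte marker UMI were left out.

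Markers of other blood cells moved with the macrophage class. All 6 neutrophil markers were above 0 in both libraries, with a summed level of 232 CPM in sham and 2205 CPM in TAC macrophages, beside 75972 CPM in the neutrophil class itself. The 6 monocyte markers summed to 38.5 and 189 CPM, and the 4 haemoglobin genes to 372 and 1213 CPM. Sema4d was at 54.0 CPM and Plxnd1 at 66.3 CPM in TAC neutrophils. With macrophages that held a monocyte marker UMI left out (959 sham and 682 TAC cells remained), both genes remained called, at log2 ratios of 1.81 for Plxnd1 and 1.78 for Sema4d. Whether other transcripts of these cells played a part was not tested.

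Divided by Ccr2, a receptor of recruited macrophages, Sema4d was at 26.8 CPM with and 10.9 CPM without a UMI in sham, and at 77.4 and 39.5 CPM in TAC. By Timd4, a gene of resident macrophages, Sema4d was at 7.44 CPM with and 17.0 CPM without in sham, and at 31.8 and 55.8 CPM in TAC, from 6 UMIs in the Timd4 cells of each library. The intervals with and without Timd4 overlapped in both libraries, and those with and without Ccr2 overlapped in sham only. Plxnd1 had no such order in TAC, where it was at 132 CPM with and 145 CPM without Ccr2, and in sham it was at 57.5 and 33.2 CPM. In each division both genes were higher in the TAC library, with intervals that overlapped only for Sema4d in Timd4 cells. Of the partner genes in macrophages, none of 4 co-receptors measured was called, Cd72, a receptor of Sema4d on immune cells, standing at 173 and 310 CPM (ratio 1.79, 1.67 to 1.92). Of 19 effectors measured, Mical1 was called higher (8.66 and 18.2 CPM) and Nck1 lower (84.2 and 38.3 CPM).

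In endothelial cells 27 members were measured, 1 called higher and 7 lower in TAC, where 3.17% of 8895 measured genes were called higher, 6.25% lower and 9.42% either way. Their median log2 ratio was -0.20 against -0.10 over all measured genes. The sham values rest on 133 shallow cells and on 3 to 67 UMIs a gene, and 6 of the 7 genes called lower were ligands. Efna1, an ephrin of endothelium, had the most UMIs: 67, or 208 CPM, in sham and 296, or 101 CPM, in TAC, 2.06-fold lower (1.56 to 2.70). Sema3a, a secreted semaphorin that repels growing vessels and axons, was at 68.2 CPM from 22 UMIs in sham and at 11.9 CPM in TAC, 5.73-fold lower (3.20 to 10.0). Plxnc1 was at 43.4 CPM from 14 UMIs and at 6.46 CPM, 6.72-fold lower (3.12 to 14.1). Sema3g, an arterial semaphorin, was at 74.4 and 36.05 CPM, and Ntn1 at 58.9 and 28.6 CPM. Sema3d was at 31.0 and 11.6 CPM, and Ntn4 at 43.4 and 20.1 CPM. The gene called higher, Sema6b, had 5 UMIs in sham and 114 in TAC, a ratio of 2.50 with an interval from 1.04 to 7.85. Sema6b lost its call at equal depth, with classes from clusters, with the stricter cell filter, with the stricter gate and without cells that held an endocardial marker UMI (log2 ratios from 0.72 to 2.34).

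Endocardial markers differed between the libraries within the endothelial class. The 3 markers were all above 0 in the endothelial class and summed to 574 CPM in sham and 91.1 CPM in TAC, beside 3954 CPM in sham endocardial cells, and endocardial cells carried Plxnc1 at 70.7, Ntn4 at 94.2, Ntn1 at 118 and Sema3d at 51.0 CPM in sham, with Sema3g at 3.93 CPM. With cells holding an endocardial marker UMI left out (100 sham and 562 TAC cells remained), 4 members were called lower. Efna1, Sema3g and Plxnc1 kept their call and Epha7 gained one (log2 ratio -3.50), Ntn1 and Sema3a lost theirs (-0.49 and -1.19), and Ntn4 and Sema3d turned to log2 ratios of 0.61 and 1.24. With classes taken from clusters 2 were called lower, Efna1 and Sema3g, and Plxnc1 turned to a log2 ratio of 1.04. At equal depth Sema3a and Sema3d also lost their calls. Efna1 lost its call at equal depth (log2 ratio -0.94) and under median-of-ratios scaling (-0.88). Sema3g lost its call in those settings and with the stricter cell filter and the stricter gate (log2 ratios from -1.08 to -0.79). Haemoglobin genes summed to 136 and 6633 CPM and fibroblast markers to 1681 and 854 CPM in this class, and their part in these results was not tested.

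Of the measured endothelial members, 6 of 14 ligands and 1 of 13 receptors were called lower, a difference that was not tested. These counts changed with the setting. With cells holding an endocardial marker UMI left out, the ligands Efna1 and Sema3g and the receptors Plxnc1 and Epha7 were called lower. With classes taken from clusters only the ligands Efna1 and Sema3g were. Ephb4 was at 124 and 224 CPM, a ratio of 1.81 (1.31 to 2.55), Plxnd1 at a ratio of 1.32 (0.992 to 1.78), Robo4 at 1.23 (0.854 to 1.82) and Unc5b at 1.24 (0.703 to 2.38). Of 6 co-receptors measured none was called, with Nrp1 at a ratio of 1.57 (1.35 to 1.82) and Nrp2 at 1.67 (1.29 to 2.19). Of 24 effectors measured 1 was called lower, Rnd1, a small GTPase that binds plexins, at 86.8 and 23.5 CPM. Divided by Gja4, a gap junction gene of arterial endothelium, Efnb2 was at 714 CPM in the 14 sham cells with a UMI and 115 CPM in the other 93, and at 357 CPM in 26 TAC cells and 130 CPM in the other 559. Sema3g was likewise at 255 and 46.1 CPM in sham, with overlapping intervals, and at 165 and 28.1 CPM in TAC. Ephb4 was at 51.0 CPM from 1 UMI and 138 CPM in sham, and at 137 and 262 CPM in TAC, with overlapping intervals in both libraries. Efna1 was at 714 and 169 CPM in sham and at 220 and 120 CPM in TAC. With or without Gja4, the sham and TAC intervals of Efna1 and of Sema3g overlapped. Cells with a UMI of Rbp7, a leading gene of TAC endothelial cells, numbered 27 against 80 without in sham, and 454 against 131 in TAC. The part of this make-up in the endothelial calls was not tested.

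In lymphatic endothelial cells 24 members were measured, 2 called higher and 2 lower, where 2.68% of 9134 measured genes were called higher, 4.38% lower and 7.06% either way. Their median log2 ratio was -0.05 against -0.12 over all measured genes. Efna1 (chromosome 3, 89271733 to 89281142, minus strand) was at 236 CPM, 46 UMIs, in sham and 51.0 CPM, 127 UMIs, in TAC, 4.63-fold lower (3.23 to 6.53). Of the cells thinned to 1700 UMIs, 32.7% in sham and 10.6% in TAC held a UMI of it, against 1.07% and 0.925% of fibroblasts. Unthinned, the lymphatic shares were 48.5% and 31.3%, with cells of 2672 and 7829.5 UMIs in the median and fibroblasts of 4986 and 12114.5 UMIs. In sham the interval of Efna1 overlapped that of endothelial cells (208 CPM), and in TAC it lay below theirs (101 CPM). Epha4, with 3 UMIs in each library, was also called lower, 12.8-fold with an interval from 1.71 to 95.4, and lost its call with classes from clusters (log2 ratio -1.11) and at equal depth (-2.95).

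The genes called higher were Sema3f and Efnb2. Sema3f, a ligand of neuropilin-2, was at 87.2 CPM, 17 UMIs, in sham and 240 CPM, 597 UMIs, in TAC, a ratio of 2.75 (1.70 to 4.75). Efnb2, which is needed for lymphatic valves, was at 103 CPM, 20 UMIs, and 210 CPM, 523 UMIs, a ratio of 2.05 (1.31 to 3.38). Each lost its call in 1 setting, Sema3f at equal depth (log2 ratio 0.98) and Efnb2 with a stricter gate (0.98). Sema3a, a ligand of lymphatic valves, was at 123 and 224 CPM, a ratio of 1.82 (1.21 to 2.86), under the 2-fold limit. Sema4d had 0 UMIs in sham and 47 in TAC, which is 1.23-fold higher when sham is set to the floor of 3 counts. It was not called, because its counting interval did not exclude 1.

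The abundant lymphatic ligands and receptors were closer to even. Ntn1 was at a ratio of 0.632 (0.502 to 0.805), Sema3d at 0.767 (0.568 to 1.06), Sema6a at 1.14 (0.836 to 1.60), Ephb4 at 1.10 (0.761 to 1.66) and Unc5b at 1.58 (0.910 to 3.01). Of 8 co-receptors measured, Flrt2, an alternative partner of Unc5 receptors, was called higher from 4 and 183 UMIs (20.5 and 73.5 CPM). Of 25 effectors Farp1 was called higher and Rnd1 lower (51.3 and 17.3 CPM). Farp1 had 0 and 59 UMIs, 1.54-fold higher with sham set to the same floor, and its counting interval began at 1.21. The 3 endocardial markers summed to 195 CPM in sham and 12.0 CPM in TAC lymphatic cells, and haemoglobin genes to 169 and 3147 CPM. Their part in these values was not tested.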

How the data were processed

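Non-cardiomyocytes of 1 sham and 1 TAC library, both of day 20, were analysed. Per the labels' protocols, hearts were digested with collagenases and a protease, cardiomyocytes settled out, red cells were lysed and viable cells sorted. The values the authors deposited are raw UMI counts for each gene in each barcode; per the file headers, Cell Ranger 3.1.0 wrote them. Per the submitters' processing notes the build was mm10 and Seurat was among the tools; the annotation is not given in the sources used here. Gene positions were taken from a GENCODE annotation of mm10, in which all 65 genes matched.

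Barcodes needed 500 genes, 1000 UMIs and at most 15% of UMIs from mitochondrial genes (462 sham and 901 TAC barcodes failed). Scrublet, run on each library through Scanpy 1.11.5, called 70 and 146 doublets, which were removed. The libraries shared 15 barcodes. The authors' cell names were not used; each cell was gated on 16 lists of markers. A marker's log value was scaled to its 100 highest cells, and a lineage needed a mean score of 0.25 and 2 times the score of the next lineage. Lymphatic and endocardial cells were then taken from the endothelial lineage at 0.25 and 0.35 of their own markers, so these classes are ranges of a score. Of the kept cells 482 lay near the margin, between 1.6 and 2.5 times the next score. The scoring rule was set after the data were seen, and since cell names were rebuilt here, they may differ from the study's.

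Summed UMIs of each class in each library were scaled to CPM, with exact Poisson 95% intervals for levels, exact conditional 95% intervals for ratios and exact Clopper-Pearson 95% intervals for shares (SciPy 1.17.1). Log2 ratios used CPM + 1. Genes had to reach 10 CPM in a library and, where they were higher, 10% of the highest class; mitochondrial, ribosomal and haemoglobin genes were left out. A floor of 3 counts bounded values of 0. With 1 library per group there was no test, and the ratio and interval steps were tested on simulated data. Genes were named if they reached 50 CPM in a class of at least 50 cells, were called in a compared class, or led their subfamily. The members, the marker and gene lists and the comparisons were chosen with earlier results of these data known. Alternatives covered cell filters, gates, clusters, depth, scaling, the free-RNA limit, minimum level and pseudocount. Promoter sequences came from RefSeq.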

Additional observations from a re-analysis of the deposited data

Results flagged for a closer look

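Sema3a stood out because its difference between the libraries had opposite signs in the vessel classes. Its log2 ratio of TAC to sham was 0.86 in lymphatic endothelial cells, with 123 CPM in sham and 224 CPM in TAC, and -2.42 in endothelial cells, with 68.2 and 11.9 CPM. With 1 library per group the difference between the classes was not tested. In endothelial cells the value was -1.19 without cells that held an endocardial marker UMI and -0.23 with classes taken from clusters. Sema3a was not called in either setting, and it also lost its call at equal depth.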

How the results depend on the processing

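With 1 library per group nothing could be left out, and all limits are those of counting: sham endothelial and lymphatic values rest on 133 and 68 cells. No paired analysis was possible because each group is 1 library. The stricter cell filter left 48 sham lymphatic cells, so that class was not compared there. Calls of Unc5b and Sema3c in fibroblasts, Plxnd1 and Sema4d in macrophages and Efna1 in lymphatic endothelial cells were kept in all settings that gave a call. The median log2 ratio of the members ranged from -0.12 to 0.03 in fibroblasts, -0.13 to 0.93 in macrophages, -0.36 to 0.29 in endothelial and -0.05 to 0.41 in lymphatic endothelial cells, so none had a settled sign. The highest of the 4 classes was the same for 26 to 30 of the 30 named genes over 6 settings.

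Counts of calls moved as follows. In endothelial cells 1 gene was called higher, Sema6b. There were 2 at equal depth and 3 under the stricter cell filter, neither time with Sema6b, 3 under median-of-ratios scaling and 0 at a minimum of 50 CPM. Sema6b also lost its call with clusters, the stricter gate and without endocardial marker cells. The 7 called lower became 3 with the stricter gate, 2 with classes from clusters, 4 at equal depth, 3 under median-of-ratios scaling, 4 at a minimum of 50 CPM and 4 without endocardial marker cells, a setting chosen after seeing the data. In that last setting Ntn4 and Sema3d reversed to 0.61 and 1.24, and Plxnc1 to 1.04 with clusters. In fibroblasts 4 were called higher with no minimum level and 2 lower at 50 CPM. In macrophages 1 was called lower with clusters, 3 with no minimum level and 1 without cells holding a monocyte marker UMI, also chosen after seeing the data. In lymphatic endothelial cells 1 was called higher with the stricter gate and 4 under median-of-ratios scaling, and 1 lower at equal depth and 1 at 50 CPM. That scaling moved the median of all genes from -0.10 to 0.07 in endothelial and from -0.12 to 0.06 in lymphatic cells, and all genes called higher and lower from 282 and 556 to 451 and 420, and from 245 and 400 to 366 and 261. For the other settings the calls over all genes were not counted, so the member counts there have no share beside them. The cause of the other moves was not tested.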

Other observations

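Classes under 50 cells in a library entered no comparison, and their guidance genes are given as values. In T or NK cells (40 sham and 37 TAC cells) Sema4a was at 136 CPM from 19 UMIs and 186 CPM from 34 UMIs, and Sema4d at 100.1 CPM from 14 UMIs and 142 CPM from 26 UMIs. In mural cells (36 and 72 cells) Sema6d was at 222 and 143 CPM, from 18 and 44 UMIs, and Sema5a at 123 and 91.1 CPM. Plxnb1, a receptor of Sema4d, had 4 and 14 UMIs there (49.3 and 45.6 CPM) and at most 0.679 CPM in fibroblasts, macrophages, endothelial and lymphatic endothelial cells. In endocardial cells (67 and 35 cells) Epha7 was at 114 CPM from 29 UMIs and 269 CPM from 90 UMIs, and Plxnc1 at 70.7 and 120 CPM. Sema4b was at 37.5 and 64.9 CPM in B cells (49 and 43 cells), from 3 and 10 UMIs.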
